A study of Mus musculus with 8 samples.

Results

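The p53 pathway and target genes described here are 30 protein-coding genes chosen by name from knowledge of the pathway. They include Trp53 itself, its regulators, genes it is known to switch on and other genes of stress and survival, such as Bcl2l1 and Mcl1. The choice was made with earlier results of these data known. All 30 were found by symbol among 21631 protein-coding genes on chromosomes 1 to 19 and X of the mm10 annotation. A gene was counted when a listed region came within 1 kb of either of its ends and, in a wider count, when a region lay in the gene body or within 10 kb of it. The regions come from ATAC-seq, which maps open DNA as the places where a transposase, Tn5, can insert. The cells were Hepa-1c1c7, an established mouse hepatoma line, kept for 72 h in 0.1, 0.5 or 1 µM potassium chromate, whose chromium is hexavalent, or left untreated at 0 µM. Each dose had 2 libraries, 8 in all, and the files hold 1 region list per treated dose. Each list carries the untreated cells in its name, and a list of the untreated cells alone was not used here.

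The protein p53 is a transcription factor that is held low in unstressed cells by Mdm2 and Mdm4 and is stabilised after DNA damage. It binds a response element made of paired half-sites and raises genes that stop the cell cycle, repair DNA or start cell death. Hexavalent chromium is reduced inside cells and damages DNA, which makes this pathway one to look at in chromate-treated cells. Many p53-bound elements lie in introns or well upstream, so an open promoter and an active p53 target are separate things.

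A list has no replicate error, so no count below could be tested against a spread between libraries, and the depth of each library is unknown. The sources used here do not say how the untreated cells entered a list, so a listed region is not shown to be more open than in untreated cells, and an unlisted one is not shown to be closed. All lists name the same untreated cells, and the label prefix of the libraries at 1 µM is not that of the rest, which cannot be told apart from that dose. The lists held 14401, 11130 and 15894 regions in order of dose. Each region has the authors' whole-number score, of 4 or more and without a stated scale, which is given below as deposited and as its percentile within its own list (100 is the highest). With the scale unstated, scores are not read as differences between doses. Of 13 hepatocyte genes, 3, 3 and 4 (23.1%, 23.1% and 30.8%) were listed at an end in order of dose, near the 19.5%, 18.7% and 23% of all genes, with Apoa2, Foxa2 and Nr1h4 at every dose and Alb, Afp, Ttr and Hnf4a at none. Of 6 immune genes 0 had one at each dose, of 7 fibroblast, stellate and endothelial genes 0, 1 and 1, and of 4 neuronal genes 1, 0 and 0.

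The promoters shown next are those of the 6 genes with the highest mean score percentile among genes whose promoter was covered at every dose. For comparison, the upstream promoter of Cdkn1a, which was chosen after its values were seen, is shown as one that carries p53 letters and no listed region. Each line gives the 250 bases before a RefSeq transcript start, on the gene's own strand, from GRCm38.p6, the assembly of mm10. Capitals mark matches to the motifs searched, which are described after the lines.
Ccng1, chr11:40755287-40755536, minus strand: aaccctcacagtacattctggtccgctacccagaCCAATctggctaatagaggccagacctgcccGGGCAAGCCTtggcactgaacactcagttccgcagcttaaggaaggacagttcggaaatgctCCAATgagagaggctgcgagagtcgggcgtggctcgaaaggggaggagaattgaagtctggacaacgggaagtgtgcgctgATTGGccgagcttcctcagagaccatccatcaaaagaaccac
Gadd45a, chr6:67037408-67037657, minus strand: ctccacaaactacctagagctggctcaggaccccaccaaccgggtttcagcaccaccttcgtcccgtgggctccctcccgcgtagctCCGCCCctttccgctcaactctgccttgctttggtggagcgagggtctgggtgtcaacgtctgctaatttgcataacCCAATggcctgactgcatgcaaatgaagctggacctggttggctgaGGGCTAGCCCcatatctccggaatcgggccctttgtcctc
Mdm4, chr1:133025417-133025666, minus strand: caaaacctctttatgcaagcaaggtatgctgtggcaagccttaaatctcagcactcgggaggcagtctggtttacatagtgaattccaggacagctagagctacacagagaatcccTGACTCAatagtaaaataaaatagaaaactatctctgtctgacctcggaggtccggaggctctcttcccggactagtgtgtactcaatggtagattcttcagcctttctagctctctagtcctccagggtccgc
Aen, chr7:78895808-78896057, plus strand: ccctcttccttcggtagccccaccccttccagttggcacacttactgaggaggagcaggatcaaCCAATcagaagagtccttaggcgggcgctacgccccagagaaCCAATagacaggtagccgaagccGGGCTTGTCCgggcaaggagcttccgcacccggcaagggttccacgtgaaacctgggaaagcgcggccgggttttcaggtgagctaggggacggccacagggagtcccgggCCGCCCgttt
Mdm2, chr10:117710759-117711008, minus strand: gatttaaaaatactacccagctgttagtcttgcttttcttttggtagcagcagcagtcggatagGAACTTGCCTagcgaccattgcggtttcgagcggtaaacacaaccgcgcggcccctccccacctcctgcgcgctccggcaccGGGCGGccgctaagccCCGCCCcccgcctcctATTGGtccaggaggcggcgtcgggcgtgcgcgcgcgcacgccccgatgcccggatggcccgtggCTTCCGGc
Apaf1, chr10:91082744-91082993, minus strand: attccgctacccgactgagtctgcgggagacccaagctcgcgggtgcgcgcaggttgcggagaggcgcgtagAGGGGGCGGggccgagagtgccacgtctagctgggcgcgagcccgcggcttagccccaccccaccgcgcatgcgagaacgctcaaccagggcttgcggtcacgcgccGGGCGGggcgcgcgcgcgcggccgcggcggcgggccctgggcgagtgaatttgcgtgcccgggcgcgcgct
Cdkn1a, chr17:29090729-29090978, plus strand: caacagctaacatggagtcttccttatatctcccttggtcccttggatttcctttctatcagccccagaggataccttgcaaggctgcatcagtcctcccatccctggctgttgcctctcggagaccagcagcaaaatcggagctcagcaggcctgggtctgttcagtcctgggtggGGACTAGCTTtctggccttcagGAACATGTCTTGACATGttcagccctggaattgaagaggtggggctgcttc

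In Ccng1, Gadd45a, Aen and Mdm2 the run of 10 capitals is a p53 half-site, searched by its published consensus. It begins 185 bases before the start of Ccng1, 40 before that of Gadd45a and 186 before that of Mdm2. In Aen it begins 121 bases before the inner of 2 RefSeq starts, which is the one shown. Each of these matches lay inside a listed region at all 3 doses. The outer start of Aen, at position 78895927 on chromosome 7, lies before the match, and the bases searched before that start hold no half-site. The promoters of both Aen starts tied in mean score percentile. At 0.5 µM the listed region ended at 78896031, short of the inner start at 78896058. Ccng1 also holds 3 CCAAT boxes, read on either strand, and Aen 2. Gadd45a and Mdm2 hold 1 each. The GC box GGGCGG, on either strand, is found once in Gadd45a and in Aen and 2 times each in Mdm2 and Apaf1, where 1 of the pair overlaps AGGGGGC, letters of the CTCF consensus. Mdm2 holds CCGGAAG, an ETS motif, next to its start. The shown promoter of Mdm4 has a single match, TGANTCA, the letters of an AP-1 site. Cdkn1a holds 2 p53 half-sites within 32 bases, from 73 to 42 bases before the start. The capitals run on to 35 bases before the start, where the spaced CATG pair of a full p53 element overlaps the nearer of them.

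Of the 30 genes, 15 had a listed region at an end in at least 1 list. By dose, 12 of 30 (40.0%) had one at 0.1 µM, 11 (36.7%) at 0.5 µM and 14 (46.7%) at 1 µM, against 19.5%, 18.7% and 23% of all protein-coding genes. In 10 genes (33.3%, against 14.2% of all genes) it was present at every dose: Mdm2, Gadd45a, Pmaip1, Ccng1, Plk2, Aen, Fas, Apaf1, Rrm2b and Polk. The other 15 had none in any list (50%, against 73.2% of all genes). The background takes in genes of every tissue. It was not matched for how widely a gene is used, for gene length or for promoter CpG content, which is given by class further below. Their part in the difference was not tested. Nor was the part of choosing the genes with earlier results of these data known.

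**Figure D1:**
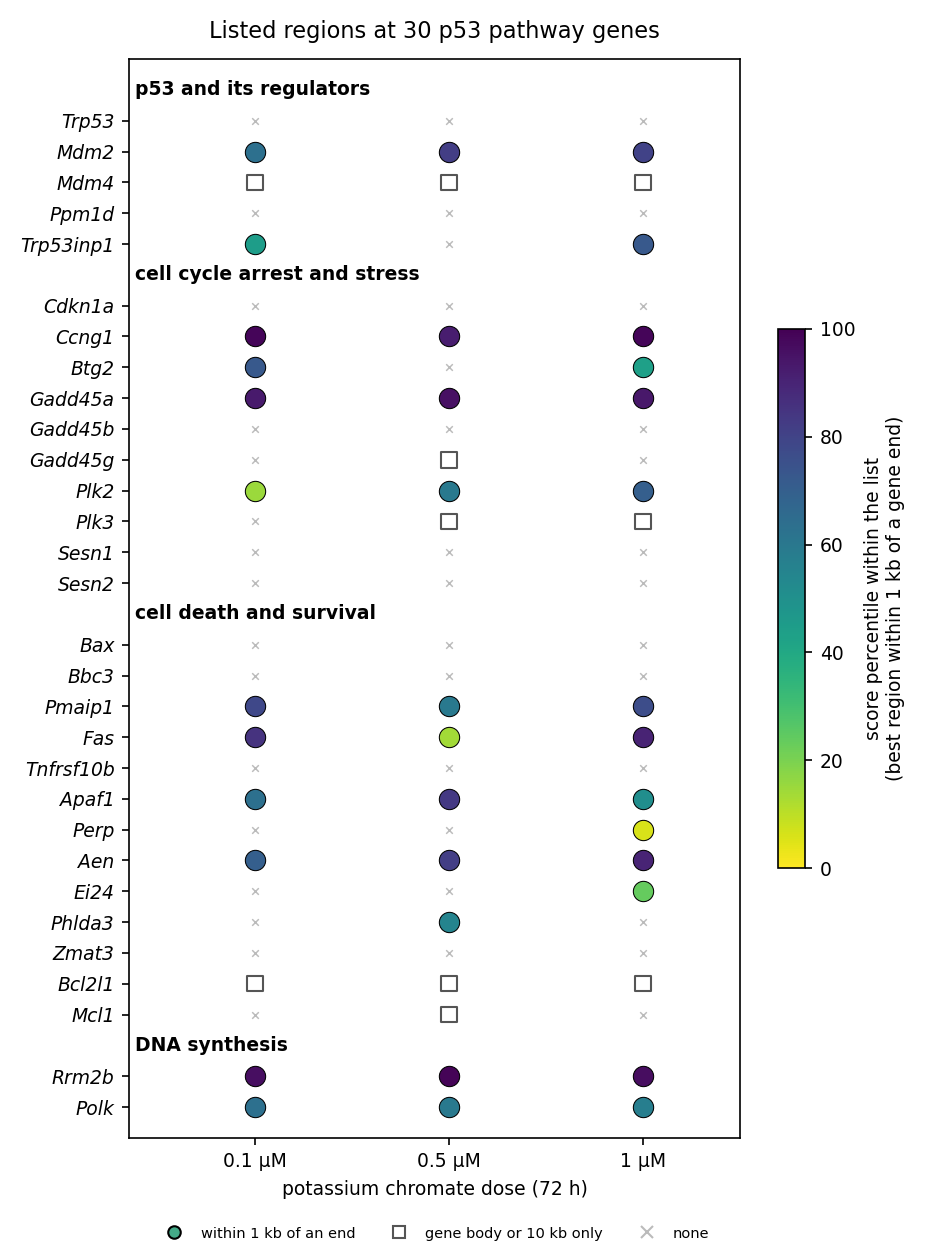
Listed regions at the 30 genes, in rows grouped by role, at 0.1, 0.5 and 1 µM potassium chromate in columns, with filled circles coloured by the score percentile of the best region within 1 kb of a gene end, open squares for a region only in the gene body or within 10 kb, and crosses for none. In 10 genes all 3 circles are filled, and in 10 all 3 marks are crosses.

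With the gene body and 10 kb either side, 14, 16 and 17 of 30 genes (46.7%, 53.3% and 56.7%) had a region, against 31.7%, 30.2% and 36.8% of all genes. At every dose there were 12 (40.0%, against 23.4%), the 10 above with Mdm4 and Bcl2l1, and 10 had none at any dose (33.3%, against 57.3%). RefSeq promoters, from 250 bases before to 50 after a transcript start, were on file for 24 of the 30 genes. A region covered at least 1 promoter in 10, 12 and 12 of these 24 (41.7%, 50% and 50%), against 18.9%, 17.8% and 22.3% of 17274 genes. For 9 of 24 this held at every dose (37.5%, against 13.7%). Pmaip1, Tnfrsf10b, Zmat3, Perp, Trp53inp1 and Rrm2b had no entry, so for these the ends are named by coordinate and not as start or end of transcription.

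**Figure D2:**
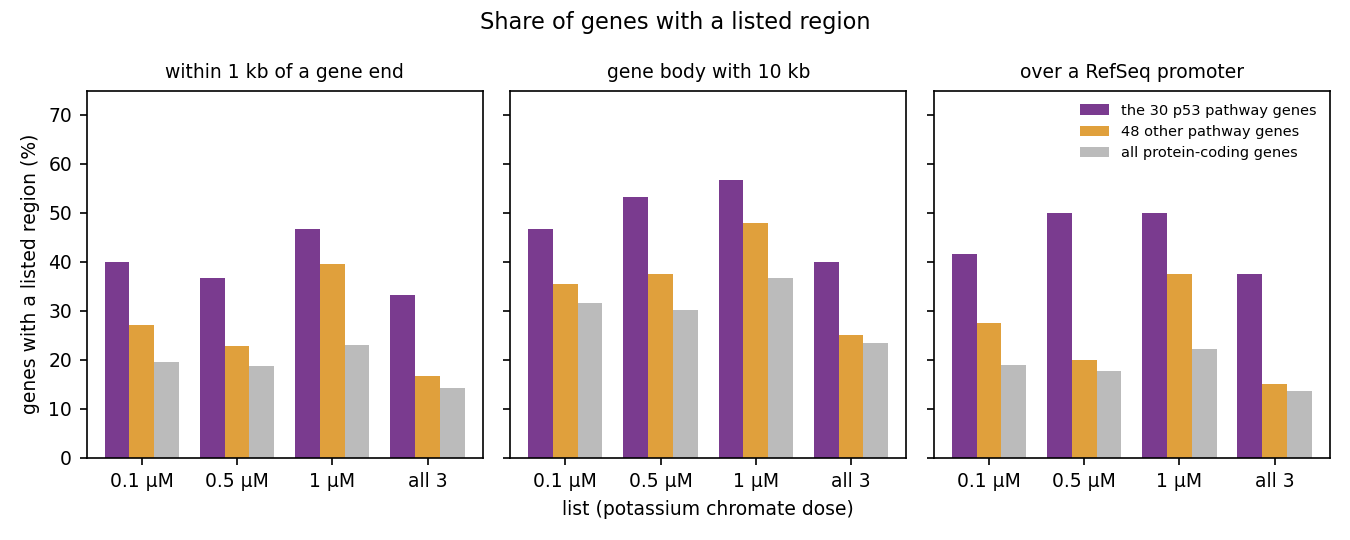
Percentage of genes with a listed region under 3 definitions, for the 30 p53 pathway genes, 48 other genes of the pathway and all protein-coding genes, at each dose and at all 3 doses together. The 30 genes lie above all genes in each group of bars, for example at 40.0% and 19.5% at 0.1 µM in the left panel, and the promoter panel rests on 24, 40 and 17274 genes.

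Of 5 genes for p53 and its regulators, 2, 1 and 2 were listed at an end, beside 19.5%, 18.7% and 23% of all genes. Trp53 and Ppm1d had no region even in the wider count. The region nearest to Trp53, at chr11:69580348-69591873, lay 507 kb away at 0.1 µM and 40.7 and 40.8 kb away at 0.5 and 1 µM. In order of dose, 15.6%, 56.6% and 48.3% of all genes lay as far from a region or farther. Ppm1d, the phosphatase that shuts down p53 signalling, was farther from any region than Trp53, at 1762, 1615 and 1615 kb. Only 3.49%, 4.63% and 2.44% of all genes lay as far or farther.

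Mdm2, the ubiquitin ligase that marks p53 for degradation, had 2 separate regions within 1 kb of its start in every list. The first covered the promoter, at chr10:117710502-117711048 at 0.1 µM, and scored 15, 20 and 27 from the lowest to the highest dose. The second had its midpoint 563, 606 and 633 bp after the start, with scores of 11, 4 and 14. Mdm2 is known to have a second promoter within its first intron that answers to p53, and no deposited value assigns the inner region to it. A further region, at -7057 and -7049 bp from the start, was present at 0.1 and 1 µM (scores 12 and 28) and not at 0.5 µM.

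Mdm4, the relative of Mdm2 that blocks the activating part of p53, had no region at the outer ends of its RefSeq gene, yet ranked high inside. Of its 2 transcript starts, the inner one was covered at every dose, with scores of 55, 28 and 62 (percentiles 95.6, 90.4 and 95.2). The outer one, at position 133030587 on chromosome 1, was covered at none. A region in the gene, at chr1:133007243-133007685 at 0.1 µM, had scores of 38, 18 and 17. Behind the gene's other end, regions were listed at every dose. Those at 0.1 and 0.5 µM overlapped each other, and the 3 regions there at 1 µM overlapped neither. Trp53inp1, which modulates p53-dependent cell death, had a region at its lower-coordinate end at 0.1 and 1 µM (scores 10 and 21) and none within 10 kb at 0.5 µM, where the nearest lay 17.0 kb away.

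Of 10 genes of cell cycle arrest and stress, 4, 3 and 4 were listed at an end (all genes 19.5%, 18.7% and 23%). Cdkn1a, which encodes the cyclin-dependent kinase inhibitor p21 and is the best known p53 target, had none. Its nearest region lay 390 kb away at 0.1 µM, 400 kb at 0.5 µM and 750 kb at 1 µM, distances reached by 19.4%, 18.7% and 6.87% of all genes. Ccng1, or cyclin G1, stood at the other extreme, with 1 region over its start in each list, at chr11:40755038-40755599 at 0.1 µM. Its percentile was 98.7, 92.2 and 98.8, and the region's position hardly moved, since 538 bases were common to all 3 lists and the midpoints lay within 20 bp.

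The 3 Gadd45 genes, stress sensors that bind p21 and kinases, differed from one another. Gadd45a had a region over its start at every dose, at chr6:67037216-67037727 at 0.1 µM (percentiles 93.2, 95.9 and 93.7), with 469 bases common to all lists. At 0.1 µM it had another, with its midpoint 793 bp after the start and a score of 9. Gadd45b had none within 10 kb, and its nearest regions lay 360, 174 and 104 kb away. Gadd45g had a single region, with a score of 5 and the least width in the list, in the 10 kb beyond its end at 0.5 µM.

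The polo-like kinase genes differed in the same way. Plk2 had a region over its start at every dose with scores of 6, 12 and 20 (percentiles 15, 59.5 and 70.0). At 0.1 µM it was 1 region of 690 bp, and at 0.5 µM 2 regions of 207 and 408 bp stood in its place. Plk3 had a region only beyond its end, at 0.5 and 1 µM (scores 12 and 18), which also lies within 1 kb of an end of Btbd19. Btg2, an antiproliferative gene, had its start covered at 0.1 and 1 µM (scores 18 and 11), and its nearest region at 0.5 µM lay 13.9 kb away. The sestrin genes Sesn1 and Sesn2, which restrain growth signalling under stress, had none, with nearest regions at 369, 360 and 320 kb and at 2133, 1676 and 417 kb.

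**Figure D3:**
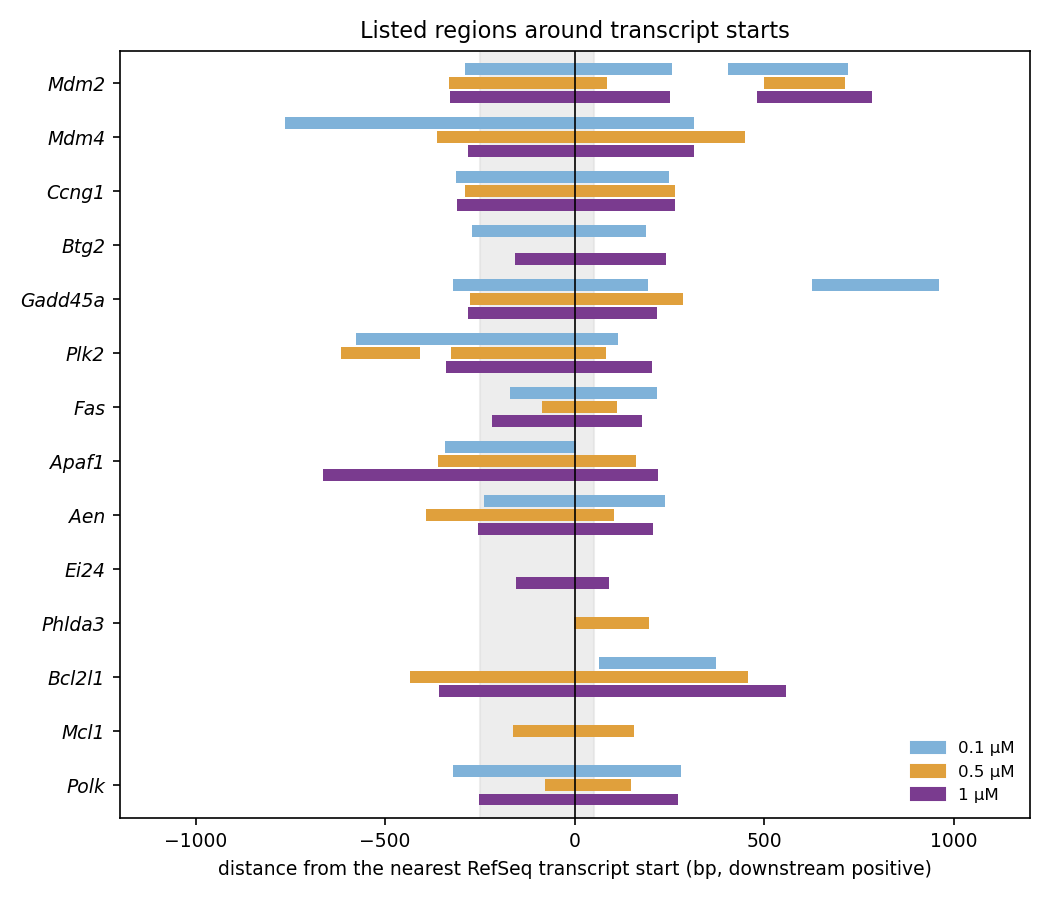
Listed regions around the nearest RefSeq transcript start of 14 genes, drawn as bars at 0.1, 0.5 and 1 µM, with distance in bp on the horizontal axis and the promoter window shaded. In 9 rows there is a bar of every dose across the shaded window, and the bars of Ccng1 line up to within 20 bp at their midpoints.

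Of 13 genes of cell death and survival, 4, 5 and 6 were listed at an end, where all genes gave 19.5%, 18.7% and 23%. The BH3-only genes, whose products trigger cell death at mitochondria, were split. Pmaip1, or Noxa, had a region at its lower-coordinate end at every dose, at chr18:66458226-66458777 at 0.1 µM, with scores of 22, 12 and 24. A lower-scoring region stood on its higher-coordinate side at 0.1 µM (score 6). At 0.5 µM a lower-scoring one stood on its lower-coordinate side (score 5), which is a different place. Another region of Pmaip1, within 10 kb beyond its other end, was also shared by all lists, with scores of 8, 19 and 25. Bbc3, or Puma, had none within 10 kb, the nearest lying 21.5, 21.8 and 53.8 kb away. Such distances or more were found at 62.8%, 63.9% and 44.2% of all genes. Bax, the pore-forming protein that BH3-only products act on, had none either. Its nearest lay at 444, 59.2 and 26.8 kb (17.5%, 51.2% and 54% of all genes as far or farther).

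The death receptor genes were split as well. Fas had a region over its start in each list, with scores of 28, 6 and 42, 388 bp wide at 0.1 µM and 395 bp at 1 µM, and of the least width in the list at 0.5 µM. At 0.5 µM it stood near the bottom of the list (percentile 13.8), against 85.2 and 90.3 at 0.1 and 1 µM. Tnfrsf10b, the mouse TRAIL receptor gene, had none, and its nearest regions were 678, 1826 and 1014 kb away.

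Apaf1, which builds the apoptosome, had its start covered at every dose (scores 15, 21 and 13), in a region that also lies within 1 kb of an end of its neighbour Ikbip. Aen, a nuclease of p53-dependent apoptosis, had the promoters of both its starts covered at every dose, with scores of 17, 20 and 41. A further region lay beyond its end, near Isg20, at every dose. Perp and Ei24 had a region at 1 µM alone, both among the weaker ones of that list (scores 5 and 8, percentiles 6.05 and 23.8). Phlda3, an inhibitor of Akt, had one at 0.5 µM alone, also of the least width, with a score of 11. Zmat3, an RNA-binding p53 target, had none, and its nearest region lay 31.1, 31.2 and 31.1 kb away. As far or farther lay 59%, 60% and 52.1% of all genes.

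The survival genes Bcl2l1 and Mcl1 had regions at or near transcript starts that lie inside the RefSeq gene, and so not within 1 kb of an end. Bcl2l1, which encodes Bcl-xL, had 1 region at 0.1 µM and 6 each at 0.5 and 1 µM in the gene body with 10 kb. As many as 6 were found at 1.09%, 0.73% and 1.46% of all genes in order of dose, which include short genes. Of the 6 regions at 0.5 µM, 4 overlapped a 1 µM region, and 1 of these overlapped the 0.1 µM region, at chr2:152831357-152831664. Its scores there were 10, 18 and 20. The other places that 0.5 and 1 µM share scored 14 and 9, 23 and 20, and 7 and 10. Mcl1 had its inner start covered at 0.5 µM alone (score 17), with another region in its 10 kb flank (score 4), and its nearest regions at 0.1 and 1 µM lay 67.9 kb away.

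**Figure D4:**
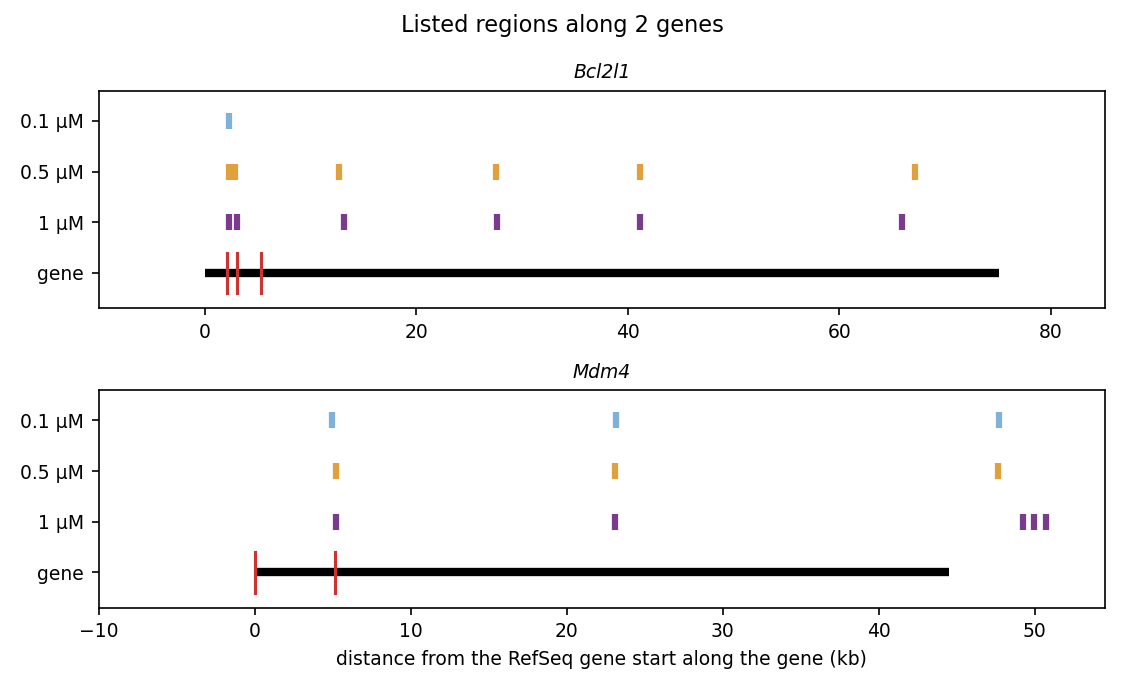
Midpoints of listed regions along Bcl2l1 and Mdm4 at 0.1, 0.5 and 1 µM, with distance from the RefSeq gene start in kb, the gene as a black bar and RefSeq transcript starts as red ticks. Bcl2l1 has 1, 6 and 6 marks in order of dose, and Mdm4 has a mark near its inner start and another inside the gene at every dose.

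Both genes of DNA synthesis were listed at an end at every dose, where 14.2% of all genes were. Rrm2b, the p53-induced subunit of ribonucleotide reductase, had the highest mean score percentile of the 10 genes listed at every dose (97.4). Its region was also the widest, 938, 922 and 1353 bp with scores of 61, 77 and 77, and it is the only one of the 30 genes on chromosome 15, which held 1883, 1693 and 2117 of the regions in order of dose. Polk, a DNA polymerase that copies past lesions, had its outer start covered with scores of 15, 12 and 15, in a region shared with an end of Cert1. Its inner transcript start was covered in no list.

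**Figure D5:**
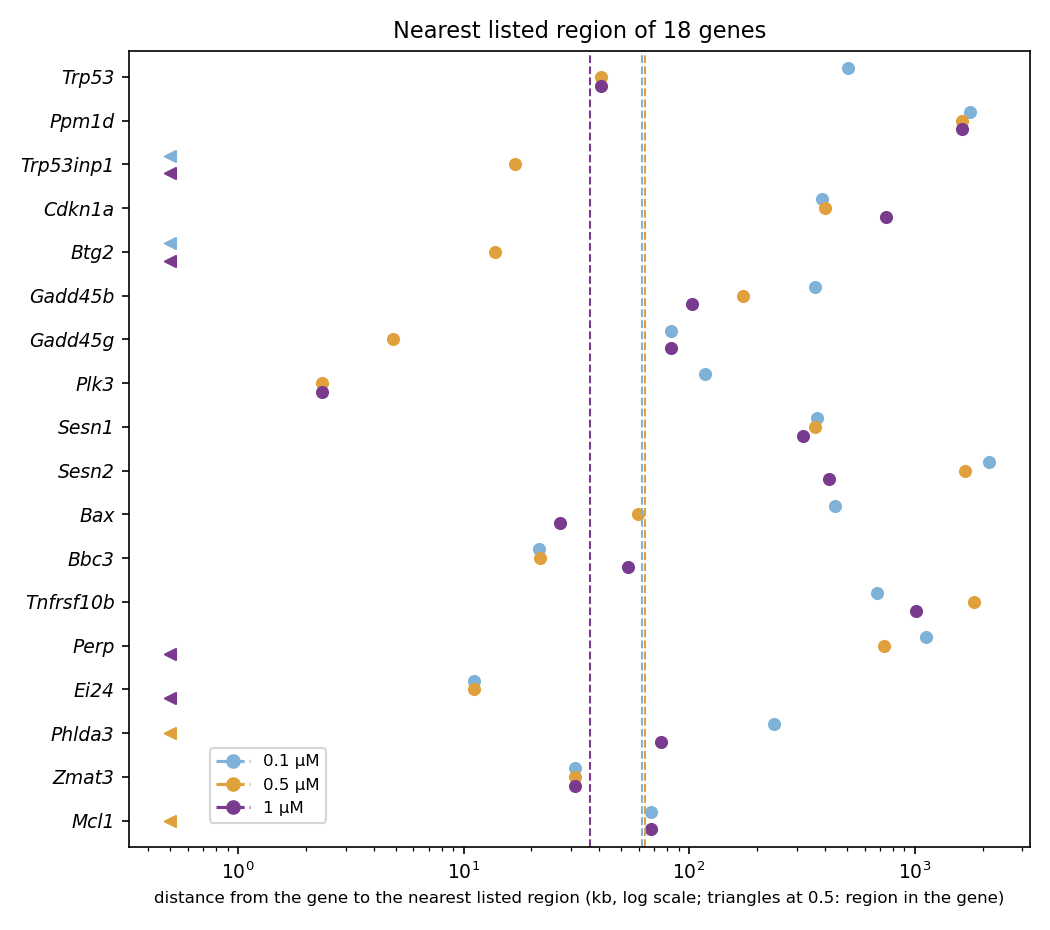
Distance from the gene to the nearest listed region for the 18 genes without a region inside the gene in at least 1 list, on a log scale in kb, with 1 point per dose, triangles at 0.5 for a region inside the gene, and dashed lines for the medians over all protein-coding genes (61.9, 63.8 and 36.4 kb in order of dose). Cdkn1a, Gadd45b, Sesn1, Sesn2, Tnfrsf10b and Ppm1d lie to the right of the dashed lines at every dose.

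Over the 30 genes the median distance to the nearest region was 16.3, 3.61 and 0 kb in order of dose, against 61.9, 63.8 and 36.4 kb over all genes. Taken by region, the gene bodies with 10 kb held 22, 29 and 31 regions. Merged over the lists they formed 39 separate places, of which 16 (41.0%) were listed at all 3 doses, against 36.9% of the 14324 places found by the same rule at all genes. Only at 0.1 µM there was 1 (2.56%, against 12.6%), only at 0.5 µM 6 (15.4%, against 8.45%) and only at 1 µM 8 (20.5%, against 19.3%). Within 1 kb of gene ends 11 of 17 places (64.7%) were shared by all lists, against 46.7% of 5805 at all genes. For the shares that follow, the brackets give the whole list, with regions outside any gene body with 10 kb, so the comparison is not matched by rule. Of the regions in the gene bodies with 10 kb, the list at 0.1 µM had 90.9% in common with that at 1 µM (74.8% for all regions). It had 77.3% in common with that at 0.5 µM (54.9%). For the list at 0.5 µM the shares were 65.5% with 0.1 µM (72.4%) and 69.0% with 1 µM (79.4%). For the list at 1 µM they were 61.3% with 0.1 µM (66.8%) and 64.5% with 0.5 µM (53.9%). The shares were higher in most cases for regions at gene ends alone. At 0.1 µM they were 93.3% with 1 µM and 73.3% with 0.5 µM. At 0.5 µM they were 92.9% with 0.1 µM and 78.6% with 1 µM. At 1 µM they were 86.7% with 0.1 µM and 73.3% with 0.5 µM. The same shares over all regions at gene ends were not worked out, so the rise is not read as a trait of these genes. Over all genes too, places at ends were in all lists more often (46.7%) than those in gene bodies with 10 kb (36.9%). The 95% exact binomial intervals of the shares in gene bodies with 10 kb, which cover counting error only, were wide, for example 45.7% to 82.1% for 65.5%. They take regions as independent and may be too narrow, since regions of 1 gene cluster. Bcl2l1 alone holds 6 of the 29 at 0.5 µM. Since the lists name the same untreated cells, these overlaps are a description. Regions of the 30 genes at gene ends had a median width of 477, 350 and 497 bp, against 422, 377 and 431.5 bp for all regions at gene ends. Their median score percentile was 63.6, 59.5 and 72.6, against 55.2, 54.8 and 57.4.

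Covered and uncovered promoters of these genes had similar medians of base composition, within wide ranges. The 24 genes have 33 RefSeq promoters, and 10 of these were covered at every dose, 6 at 1 or 2 doses and 17 at none. Their median GC content in the 250 bases before the start was 61.0%, 63.8% and 63.2%. The median ratio of observed to expected CpG was 0.702, 0.714 and 0.722. Over all 21045 promoters the same ratio was 0.786 in those covered at every dose, 0.776 at 1 or 2 doses and 0.395 at none. All promoters were put in 3 equal classes by this ratio, and the low class held 3 of the 33, the middle 15 and the high 15. In the low class, 0 of 3 were covered at each dose, against 2.97%, 2.25% and 3.49% of all promoters of that class. In the middle class, 6, 8 and 8 of 15 were covered in order of dose (40.0%, 53.3% and 53.3%), against 17.7%, 17.1% and 21.4%. In the high class, 5, 6 and 6 of 15 were (33.3%, 40.0% and 40.0%), against 31.8%, 29.9% and 36.9%. Promoters of 1 gene can overlap, as those of Aen and Bbc3 do, so the 33 are not independent.

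The p53 half-site was frequent in these promoters whether or not they were covered. It was found in 11 of 24 genes (45.8%, against 7.33% of 17274 genes): Trp53, Cdkn1a, Mdm2, Gadd45a, Bax, Ccng1, Sesn1, Ei24, Aen, Ppm1d and Polk. By promoter this was 11 of 33 (33.3%, against 6.29% of all). Of the 10 promoters covered at every dose 4 held it, and of the 17 covered at none 6 did. Over all promoters the shares were 6.30% and 6.47%. In Polk the match lies before the inner start, which was covered in no list. The genes were chosen by name for their link to p53, and the part of that choice in the share was not tested. Paired p53 half-sites with up to 13 bases between them was found in Cdkn1a alone of the 24, and in 10 of 17274 genes.

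Other motifs were searched in the same 250 bases on both strands. GGGCGG was present in 19 of 24 genes (79.2%, against 46.3%) and CCAAT in 12 (50%, against 39.9%). AGGGGGC, letters of the CTCF consensus, was found in 6 (25%, against 13.3%): Cdkn1a, Bbc3, Phlda3, Plk3, Fas and Apaf1, of which Fas and Apaf1 were covered at every dose. TGANTCA was found in 2 genes (8.33%, against 7.25%), Mdm4 and Fas, and TGACGTCA, the cAMP response element, in 3 (12.5%, against 2.23%), Btg2, Plk2 and Ppm1d. CCGGAAG was found in 2 (8.33%, against 10.3%), TATAAA in 3 (12.5%, against 13.8%) and the NRF1 motif in 0 (against 1.22%). The median GC content was 63.2% over the 33 promoters of these genes, against 55.6% over all promoters. Its part in the motif shares was not tested. A match of letters is a description and not a bound site.

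Of 48 further genes of the p53 pathway, among them upstream kinases, caspases and cell cycle partners, 13, 11 and 19 were listed at an end (27.1%, 22.9% and 39.6%, against 19.5%, 18.7% and 23% of all genes). At every dose there were 8 (16.7%), which is near the 14.2% of all genes. Among them were the checkpoint kinase gene Chek2, Cop1, a further ubiquitin ligase for p53, the cell cycle genes Cdk2, Cdk4, E2f1 and Gtse1, and the receptor gene Eda2r. In order of dose, the best scores were 12, 17 and 24 for Chek2, and 38, 14 and 34 for Cop1.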

How the data were processed

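ATAC-seq regions of chromate-treated Hepa-1c1c7 cells were analysed as deposited: 1 list per treated dose with a score per region, a whole number whose scale the authors do not state. The tools Bowtie2, Picard and MACS2 and the build mm10 were used per the submitters' processing notes, which as seen here give no version or role. The name of each list carries a q tag and the tags filtered_BL and unique, which were not interpreted here. Beyond these tags, thresholds, the Tn5 read shift, duplicate removal, and how the 2 libraries of a dose were combined could not be taken from any label or file. Nothing in the labels says whether they came from separate cultures. Gene positions, transcript starts, strands and sequences came from RefSeq tables of GRCm38.p6. Regions were matched with Python 3.11.15, pandas 2.3.3 and numpy 2.4.6. The 1 kb rule was tested on simulated placements beyond the higher-coordinate end of genes. None lay far enough out to test the 10 kb limit, and none lay inside a gene or at its lower-coordinate end. A region counted when any base lay within 1 kb of an end, or in the gene with 10 kb. No test was run, since a list has no replicates, and counts stand beside the share of all protein-coding genes. Every gene of the list is accounted for, and further pathway genes are named where a region was listed at every dose, save for an item that is not reported here. The genes, gene lists and roles were chosen with earlier results of these data known. The alternatives were other windows, midpoints, gene starts, stronger or wider regions and other overlap rules.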

Additional observations from a re-analysis of the deposited data

How the results depend on the processing

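Depth, replicate error and the use of the untreated cells in each list are unknown, and the lists cannot be compared by score. Counts within 1 kb of an end stayed within 1.5 times the reported ones with a window of 500 bp or 2.5 kb, with midpoints, gene starts or without chromosome 15, and so did counts over the gene body alone or with 5 or 25 kb. The same held with 2 choices made after the data were seen, which were RefSeq promoters and leaving out Apaf1 and Polk, whose regions lie at a neighbour's end. Counts at gene starts and promoters rest on 24 of the 30 genes, and at gene starts on 40 of the 48 further genes. The share of all genes moved as well. With 25 kb at 1 µM it rose from 36.8% to 45.3%, while the count of the 30 genes stayed at 17. In the wider 50% of the lists, the 30 genes gave 7 in place of 11 at 0.5 µM, 9 in place of 16 with the gene body and 10 kb, and the further pathway genes 12 in place of 19 at 1 µM. In the higher-scoring 50%, the further pathway genes gave 6 in place of 11 at 0.5 µM, 10 in place of 19 at 1 µM and 4 in place of 8 at every dose. These settings keep fewer regions by construction, and all genes then gave 12.2%, 19.3% and 15.5%, and 11.9%, 14% and 7.43%. Of the 24 genes with a known start, 15 kept their number of doses in each of 6 settings, and of the other 6 genes 3 did in each of 5. With 2.5 kb, Mcl1, Plk3 and Bcl2l1 gained regions at an end. No other overlap rule moved a share out of its interval, which takes regions as independent. No paired analysis was possible because each dose has 1 list and no test.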
